A study of Camellia sinensis with 3 samples.

Results

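csn-smR5749 is a predicted small RNA of tea plant (Camellia sinensis), and 18 expressed sequence tags (ESTs) were listed as its cleavage targets, of 763 targets listed for all 53 miRNAs. All targets under its name in the table of predicted miRNAs were taken. csn-smR5749 itself was chosen by the reads of its targets, which were higher in the cold library than in the control library. The reads in the 2 libraries and the categories set from them are therefore given as a description, with no test.

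The study set cold-treated leaves against untreated ones to find which transcripts miRNAs cleave. The cold degradome library (+C) came from young leaves of plants kept at 4°C, and the control degradome library (-C) from young leaves of plants kept at 28°C. In both, leaves of the cold-tolerant cultivar 'Yingshuang' and the cold-sensitive cultivar 'Baiye 1' were harvested at 6 times from 1 h to 48 h, after 20 days of growth in a warm day and night cycle. The labels give both cultivars for each library, so neither cultivars nor time points can be told apart. With 1 library on each side there was no replicate spread to set a difference against.

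A plant miRNA guides an ARGONAUTE protein to a transcript that pairs with it, and the transcript is cut opposite the middle of the miRNA. The 3′ piece keeps a free 5′ end, and degradome sequencing reads such ends. Many reads that start at one base within a pairing site therefore mark a cut, while a few scattered reads can also come from ordinary RNA decay. The sequence of csn-smR5749 and its reads in the small RNA library are not analysed here.

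By annotation, the 18 ESTs comprised 9 of the Ras-related small GTP-binding family and 5 of unknown protein. There was 1 each of a transposable element gene, the protein prenylyltransferase superfamily, a histone and an RNA-binding KH domain-containing protein. ESTs of near-identical sequence may share reads. When ESTs with equal score, span, annotation, categories and reads were joined, 9 entries were left, since the 9 Ras-related ESTs became 1 entry and 2 ESTs of unknown protein another. With 18 listed targets csn-smR5749 stood at rank 2 of the 40 predicted miRNAs. With every EST counted, its targets held 72 reads in the cold library, rank 1 of 40, and 33 in the control library, rank 4 of 40. Of the 33 control reads, 18 were of the 9 Ras-related ESTs. The 9 joined entries held 63 cold and 17 control reads, and ranks were not computed for joined entries. These reads chose csn-smR5749, so nothing is read from the ranks.

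**Figure D1:**
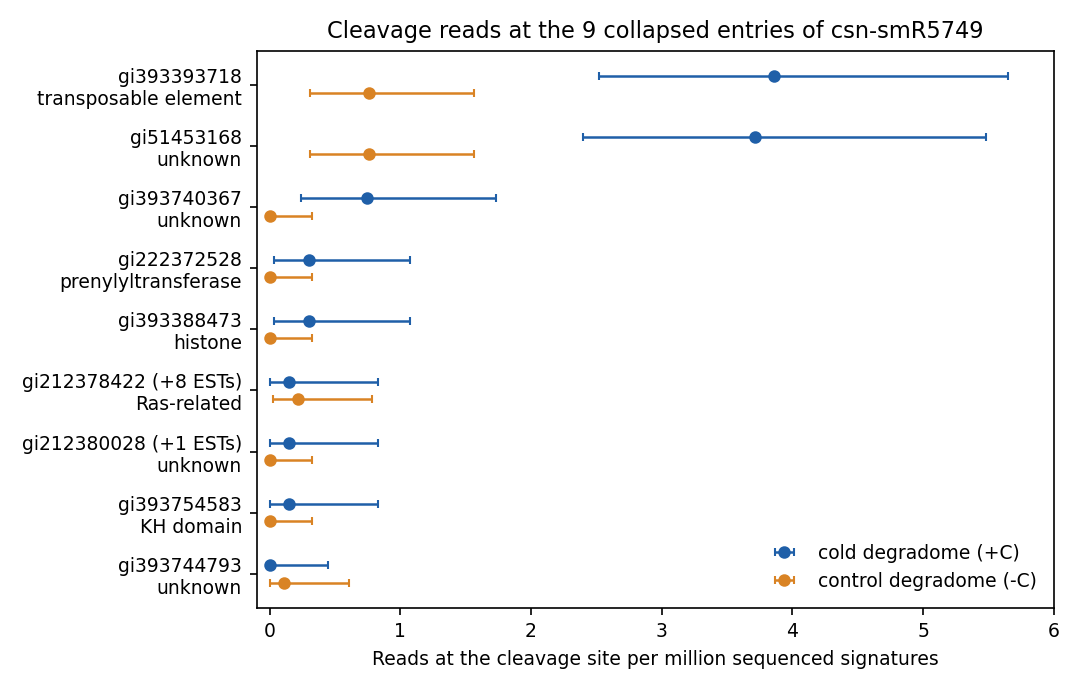
Reads at the cleavage site per 1000000 sequenced signatures (x axis) for the 9 collapsed entries of csn-smR5749 (y axis), in the cold library (blue) and the control library (orange). Bars are exact Poisson intervals at 95% for counting error only, and for 0 reads they end at the limit of 3 reads. The 2 upper entries reach 3.86 and 3.71 in the cold library, and the points of all other entries stay below 1 in both libraries.

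Most cold reads lay at 2 sites, gi393393718 and gi51453168. gi393393718, a transposable element gene, had 26 reads in the cold library and 7 in the control library at position 299 of the EST. Transposable element genes are mobile DNA that plants usually keep silent with small RNAs. Per 1000000 sequenced signatures of the library (RPM), these reads came to 3.86 RPM (95% counting interval 2.52 to 5.65) in the cold library and 0.759 (0.305 to 1.56) in the control library. The ratio of cold to control was 5.09 (2.15 to 13.9). gi51453168, an unknown protein, had 25 reads in the cold library and 7 in the control library at position 198. Its levels were 3.71 RPM (2.40 to 5.48) in the cold library and 0.759 (0.305 to 1.56) in the control library, with a ratio of 4.89 (2.06 to 13.4). Both sites had more reads in the cold library, which is what csn-smR5749 was chosen by, so the intervals are no test of a difference. All intervals cover counting error alone, since the reads passed through PCR and carried no molecular identifiers. In pooled leaves, a change in the mix of cell types and a change within cells cannot be told apart.

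These 2 sites were close in the listed measures, though not in annotation or position on the EST. Both had the same 7 control reads, cold reads that differed by 1, an alignment score of 4, a pairing of 15 nt (293 to 307 and 192 to 206) and the same categories. Both were cut at the same place within the pairing, at nt 9 from its 3′ end. Whether they hold the same reads was not tested, since the tables used give neither read nor EST sequences. Over the 9 joined entries they held 81.0% of the cold reads (51 of 63) and 82.4% of the control reads (14 of 17). With every EST counted, the Ras-related reads enter 9 times, and the shares were 70.8% of the cold reads (51 of 72) and 42.4% of the control reads (14 of 33). By cold reads they stood at ranks 5 and 6 of all 763 listed sites, while by control reads both stood at rank 47.

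**Figure D2:**
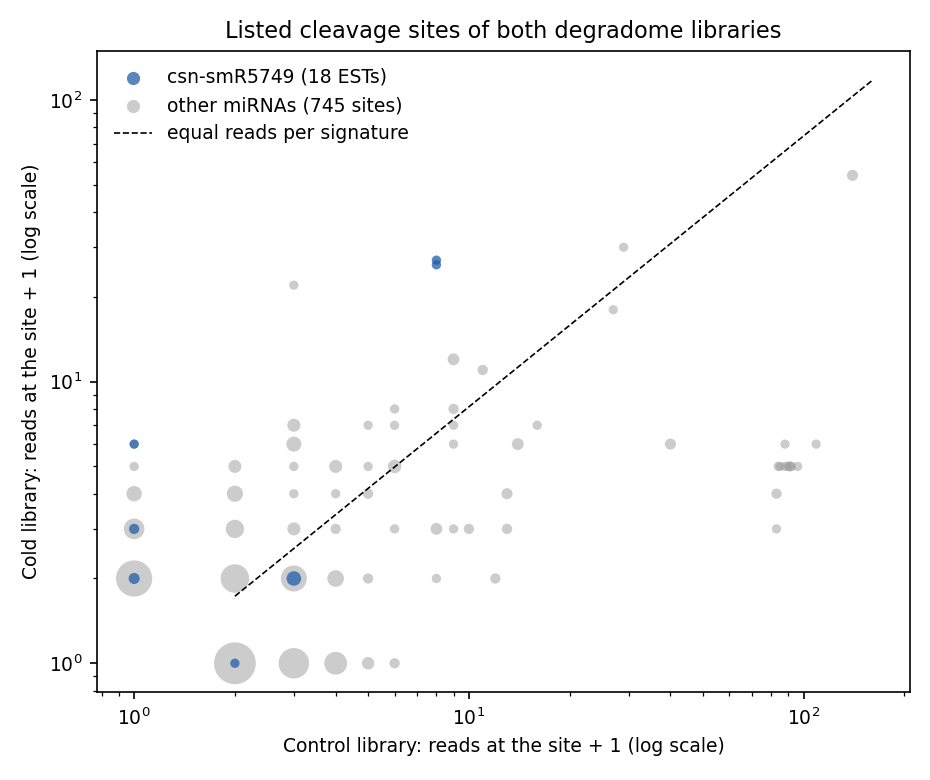
Reads in the cold library (y axis) against reads in the control library (x axis) for all 763 listed sites, each with 1 read added, on log scales. Blue points are the 18 csn-smR5749 ESTs, grey points the 745 sites of other miRNAs, larger points hold more sites, and the dashed line marks equal reads per sequenced signature. The 2 blue points at 7 control reads, with 26 and 25 cold reads, lie well above the line, and the Ras-related ESTs lie near it at 1 cold and 2 control reads.

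The categories of these sites, which rest on the same reads, differed too. The category compares the reads at the cut with all other reads on that transcript. In category 0 the cut holds the single maximum, in category 2 it lies above the median but below the maximum, in category 3 it lies at or below the median, and category 4 is a single read. gi393393718 and gi51453168 were in category 0 in the cold library and in category 2 in the control library. Of the 283 sites listed in both libraries, 3 had this pair of categories, or 1.06%. The other was the csn-miR396 site of gi393746583, with 4 cold and 5 control reads. Whether gi393393718 and gi51453168 hold the same reads was not tested. The categories use the reads that chose csn-smR5749, so nothing is read from this share. No csn-smR5749 target was in category 0 or 1 in the control library, where 11 of the 12 listed were in category 2 and 1 was in category 4. Of those 11, 9 were the Ras-related ESTs that form 1 joined entry. Over all 591 sites listed in the control library, 3.55% were in category 0 and 1.02% in category 1. Category 2 held 32% of them and category 4 held 49.1%. Categories 0 and 1 were thus rare among all control sites too.

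The Ras-related ESTs did not share the pattern of gi393393718 and gi51453168. Ras-related small GTP-binding proteins are molecular switches that cycle between a GTP-bound and a GDP-bound state, and many of them direct vesicle traffic in plant cells. All 9 ESTs, gi212378422, gi212378851, gi212379940, gi393389278, gi393740146, gi393741860, gi393745144, gi393745964 and gi393747628, had the same 1 read in the cold library and 2 reads in the control library. All had a score of 3.5, a pairing of 15 nt and a cut at nt 10 from its 3′ end, at EST positions between 199 and 323. They were in category 4 in the cold library and in category 2 in the control library, as were 36 of the 283 sites of both libraries (12.7%). At 1 and 2 reads a difference between the libraries was not detectable at this depth. Counted once, the entry stood at 0.148 RPM (0.00376 to 0.827) in the cold library and 0.217 (0.0263 to 0.783) in the control library.

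The other targets were read rarely, and most were listed in the cold library alone. gi393740367, an unknown protein, had 5 reads in the cold library and 0 in the control library, at position 697 and in category 2. Its cold level was 0.742 RPM (0.241 to 1.73), and 0 control reads allow up to 0.325 RPM. Its 5 cold reads over that limit of 3 reads gave a ratio of 2.28 per sequenced signature. This ratio leaves out the counting error of the 5 reads, so it is no lower limit. The low end of the cold interval, 0.241 RPM, lies below 0.325 RPM. Divided by the distinct signatures aligned to ESTs in place of all sequenced signatures, the ratio was 1.67 and below 2.

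gi222372528, of the protein prenylyltransferase superfamily by annotation, had 2 reads in the cold library and 0 in the control library, at position 476 and in category 3. Protein prenyltransferases attach lipid anchors to proteins, but the superfamily label does not show that this EST encodes such an enzyme. gi393388473, a histone, a protein that packs DNA into chromatin, also had 2 cold reads and 0 control reads, at position 388 and in category 2. gi393754583, with the KH domain that binds RNA, had 1 cold read and 0 control reads at position 559. The unknown proteins gi212380028 and gi366894993 had 1 cold read and 0 control reads each, at positions 419 and 396. gi393744793, an unknown protein, was the reverse case, with 0 reads in the cold library and 1 in the control library at position 262. The cold category and reads of the 6 ESTs listed in the cold library alone rest on how shifted cells were read. In the other order gi212380028, gi366894993 and gi393754583 would be in category 1 with 4 reads, while gi393740367 would be in category 5, which does not exist. None of the 6 ESTs from gi222372528 to gi393744793 exceeded 3 reads in either library, so no fold is given for them.

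The share of members on each side was read beside that of all listed sites. Of the csn-smR5749 ESTs, 6 of 18 were listed in the cold library alone, against 22.5% of all 763 sites. Only 1 of 18 was listed in the control library alone, against 40.4% of all sites, and 11 were listed in both. A fold was computed where a site had over 3 reads in at least 1 library, which held for 3 csn-smR5749 ESTs and for 109 of all sites. All 3, gi393393718, gi51453168 and gi393740367, had at least 2-fold more reads per signature in the cold library, as did 26.6% of the 109. For gi393740367 this sets its cold count against the limit of 3 reads, without counting error. None of the 3 had at least 2-fold fewer, as did 30.3% of the 109. These counts use the reads that chose csn-smR5749, so nothing is read from them.

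Summed over the 9 entries, the targets had 63 reads in the cold library and 17 in the control library, or 9.35 RPM in the cold library and 1.84 RPM in the control library. The ratio of cold to control was 5.07 (2.93 to 9.25). With gi393393718 and gi51453168 counted as 1 site, it was 5.2 (2.54 to 11.7), from 38 cold and 10 control reads. Without the 2 most read sites it was 5.48 (1.48 to 30.2), from 12 cold and 3 control reads. With every EST summed the ratio was 2.99 (1.95 to 4.66), from 72 and 33 reads, since the Ras-related reads then entered 9 times, with 9 cold and 18 control reads in all. With every EST summed and without the 2 most read sites it was 1.51 (0.775 to 2.98), from 21 cold and 19 control reads, an interval that holds 1. Of these, 9 cold and 18 control reads were of the Ras-related ESTs. Both intervals with every EST summed treat such repeated reads as separate ones. They may thus be too narrow, and nothing is read from whether they hold 1. Since csn-smR5749 was chosen by these reads, the ratios and intervals describe them and test nothing. All ratios are per sequenced signature, and the control library had 1.37 times as many signatures as the cold library.

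**Figure D3:**
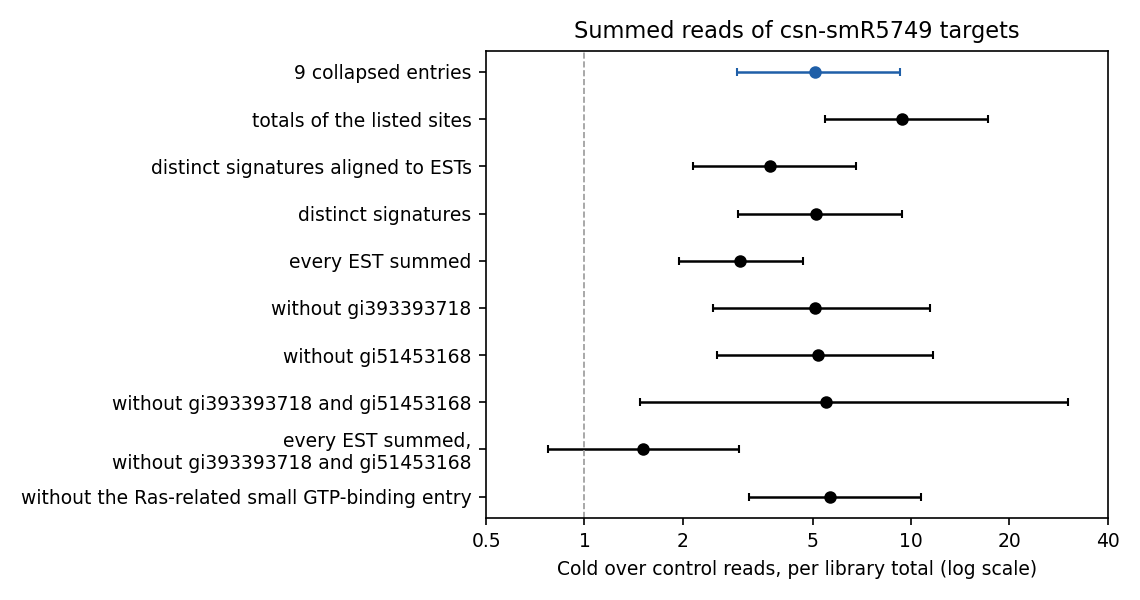
Ratio of cold to control reads summed over csn-smR5749 targets (x axis, log scale), with reads divided by a library total, under the ways of counting named on the y axis. Points are ratios and bars exact conditional intervals at 95% for counting error only. Where every EST is summed, the bars treat reads repeated over ESTs with equal values as separate, so they may be too narrow. The ratio of the 9 entries is 5.07, and the interval holds 1 only when every EST is summed without gi393393718 and gi51453168 (0.775 to 2.98).

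The pairing of csn-smR5749 with its targets was short, a measure that uses no reads. It spanned 15 nt at 13 of the 18 ESTs (72.2%), 16 nt at 4 and 17 nt at 1. Among the other predicted miRNAs 0 of 231 sites spanned 15 nt, and 1 spanned 16 nt. The median of 15 nt was the shortest of the 40 predicted miRNAs. Among the conserved miRNAs 15 nt was common, with 208 of 514 sites (40.5%). Sites of 1 miRNA share its sequence, so these shares are a description and were not tested over sites. In the joined entries 5 of 9 (55.6%) spanned 15 nt.

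**Figure D4:**
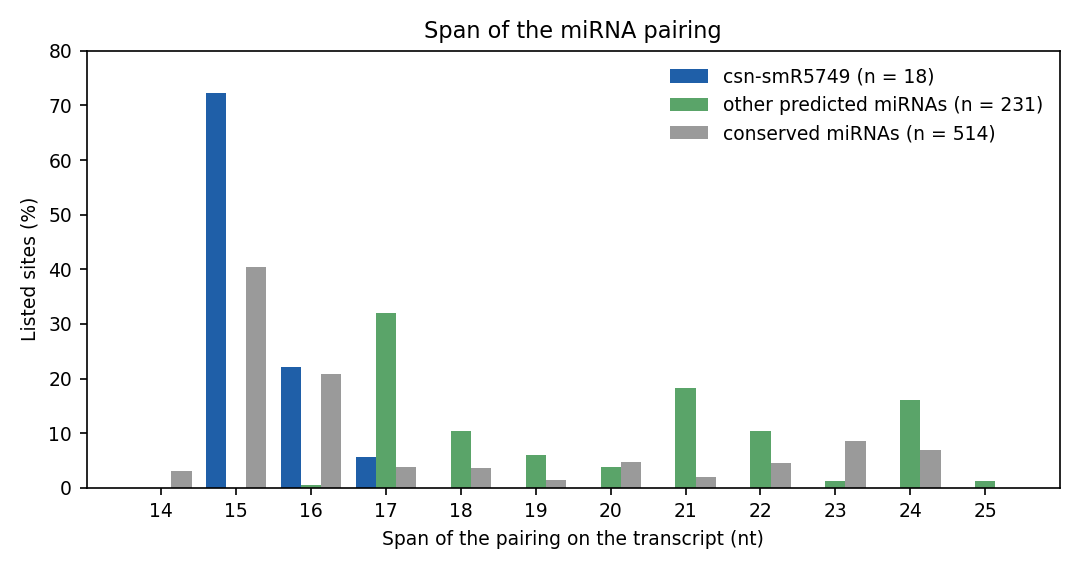
Share of listed sites in percent (y axis) by the span of the pairing on the transcript in nt (x axis), for csn-smR5749 (18 ESTs), the other predicted miRNAs (231 sites) and the conserved miRNAs (514 sites). csn-smR5749 stands at 72.2% at 15 nt, where the other predicted miRNAs have no site and the conserved miRNAs have 40.5%.

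All csn-smR5749 targets scored 3.5 or 4 in the alignment, where the score rises with mismatches and no listed site exceeds 4. The 9 Ras-related ESTs and the KH domain EST scored 3.5, and the other 8 scored 4. A score of 3.5 or more was held by 108 of 231 sites of the other predicted miRNAs (46.8%) and by 428 of 514 conserved sites (83.3%). The cut lay at nt 10 from the 3′ end of the pairing at 16 of 18 ESTs and at nt 9 at gi393393718 and gi51453168. The study's alignments were filtered on the middle of the miRNA, so the place of the cut is partly set by the processing. A cut at nt 9 was listed at 4 of 231 sites of the other predicted miRNAs (1.73%) and at 26 of 514 conserved sites (5.06%).

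Transcripts with the same annotations were also looked up among the targets of all other miRNAs. Of the 11 Ras-related sites in the tables, 9 belonged to csn-smR5749. The other two Ras-related sites were a csn-miR396 site of gi393751111, with 1 cold and 1 control read, and a csn-miR171 site of gi393745964, with 1 cold and 0 control reads. gi393745964 was the only csn-smR5749 EST that was also listed for another miRNA. Its csn-miR171 cut at position 432 lay 192 nt downstream of the csn-smR5749 cut at position 240.

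Transposable element genes were listed at 19 sites of 10 other miRNAs. Their reads per signature were higher in the cold library at 11 sites and lower at 8. Some of the 11 had equal or fewer raw reads in the cold library, such as gi327361093 with 3 cold and 4 control reads. Most of the 19 sites had few reads, so nothing is read from this split. Among the 7 with over 3 reads in a library, 0 had at least 2-fold more reads in the cold library and 3 had at least 2-fold fewer. Over all 109 such sites the shares were 26.6% and 30.3%. The 3 sites with fewer were listed for csn-miR408 (gi206583693, 4 cold and 84 control reads), csn-smR7277 (gi393393386, 5 and 39 reads) and csn-miR160 (gi327360761, 2 and 8 reads). The 5 histone sites of csn-miR319 had 0 cold reads and 1 control read each, against 2 and 0 at the csn-smR5749 site. The 3 prenylyltransferase sites of csn-miR319 and csn-miR396 summed to 2 cold reads and 1 control read. No other site carried the KH domain annotation.

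Of the 109 sites with over 3 reads in at least 1 library, 15 had reads in both libraries and a ratio over 4. Of these 15, 2 were csn-smR5749 sites. With no read minimum, such a ratio was found at 28 of the 283 sites listed in both libraries. The added sites had 3 cold reads and 1 control read each. Of the other sites of the 15, 6 were csn-smR3999 sites of ribosomal protein S13/S15 (4 cold and 1 control reads each). Another 6 were csn-miR408 sites of unknown protein (6 and 2 reads each). The last was the csn-smR2408 site of gi366885780, a protein kinase, with 21 cold and 2 control reads. gi393393718 and gi51453168 had the most cold reads of the 15. These counts use the reads that chose csn-smR5749, so nothing is read from them. csn-smR5749 gave 22.0% (17.6 to 26.8) of the cold reads listed for predicted miRNAs, 72 of 328, and 5.37% (3.72 to 7.45) of the control reads, 33 of 615. These shares count each EST, so the Ras-related reads enter 9 times. Their exact intervals cover counting error only, treat repeated reads as separate ones and may be too narrow.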

How the data were processed

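The 2 degradome tables gave, for each miRNA and EST, the alignment score, pairing range, cut position, category and reads. Per the study's methods, the authors mapped tags of 20 and 21 nt to mRNAs and ESTs of tea plant and Arabidopsis thaliana, kept perfect matches, allowed up to 5 mismatches to the miRNA, retained alignments with the read start opposite nt 10 of the miRNA, and ran CleaveLand and BlastX (versions not given in the sources used here). The deposited reads are raw counts, and the alignment score and category were deposited as scores. Positions refer to the EST, and 0 of the 18 ESTs matched the RefSeq gene table by identifier, so no genome position is given.

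In 172 entries, 6 of them of csn-smR5749, the control category was blank. The pair of cells that followed was taken to be the cold library's category and read count. In all 172 of these, category 4 stood exactly where the read count was 1, as in the 283 entries with both pairs in place. In the other order this rule failed in only 1 of the 172, so the rule hardly separates the orders. The other order would turn category 4 with 1 read into category 1 with 4 reads, and would give a category over 4 in 2 entries, 1 of them of csn-smR5749. The order is not stated in the sources used here, so cold categories and reads of these entries depend on this reading. This reading leaves 0 of the 455 listed cold sites in category 1. The paper's own tally, as the other order would, places cold-library targets in category 1. Cold category counts given here therefore differ from the published ones. In 10 ranges, none of csn-smR5749, a date was read back as month and day.

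The listed sites held 1161 reads in the cold library and 2949 in the control library, which is part of each library. Reads were therefore divided by the sequenced signatures of each library. Ratios have exact conditional (Clopper-Pearson) intervals, levels exact Poisson intervals and shares exact binomial intervals, all at 95%. A library at 0 reads was set to a limit of 3 reads, and no fold was given where both libraries were at or under it. The small RNA tables were not used here. Sites of all miRNAs were scanned with the same rule at a fold of 2. The rule was to name every csn-smR5749 target. Targets and annotation lists were chosen with earlier results of these data known. Parsing and intervals were tested on simulated data with Python 3.11.15, numpy 2.4.6 and scipy 1.17.1. Other library totals, counting rules, folds and left-out sites were tried.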

Additional observations from a re-analysis of the deposited data

How the results depend on the processing

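Of 19 alternatives, 16 left the value within its counting interval or, for counts of sites, within 1.5 times of the main count, and 0 turned its direction. With totals of the listed sites the summed ratio of cold to control was 9.41 in place of 5.07. With every EST summed and without gi393393718 and gi51453168, an alternative chosen after seeing the data, it was 1.51. With the cells after a blank control category read in the other order, also chosen after seeing the data, it was 5.40. csn-smR5749 was chosen by these reads, so a ratio above 1 is no support. With distinct signatures aligned to ESTs as totals, 2 sites in place of 3 had at least 2-fold more reads in the cold library, as gi393740367 fell below 2. Counting only sites with 2 or more reads over both libraries, 3 ESTs in place of 6 were listed in the cold library alone, since single-read sites then drop out. With 1 library per group, leaving out a replicate was not possible. At 7 of the 9 entries no library had over 5 reads, so depth limits what they can show.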
